A study of Homo sapiens with 16 samples.

Results

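The genes described here are 38 genes of the actin cytoskeleton, chosen by name from the 27043 gene rows of a single-cell count table. The rule used no measured value, but the names were chosen with earlier results of these data known. A row counted as a member if 1 of the 38 symbols stood among its names, and all 38 symbols found a row. The cells are SK-N-AS, an established human neuroblastoma line, that is a tumour line of the sympathetic nervous lineage, often used as a model of the mesenchymal state. They were untreated, grown in RPMI1640 with fetal calf serum, harvested with versene and sorted singly into 384-well plates for MARS-seq, a 3' tag method. The labels give 16 samples of this 1 line and no other group, and the 603 cell columns carry barcodes that name no sample. All cells were therefore read as 1 pool, in which no replicate and no test between samples exists.

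Actin is a globular protein that polymerises into filaments, and the cell sets their amount through proteins that hold, deliver or release actin monomers. Tropomyosins and their relatives coat the sides of filaments, myosin II pulls on them, the Arp2/3 complex starts branches, and crosslinkers, capping proteins and adhesion proteins bundle filaments, close their ends and tie them to the membrane. Contractile bundles of this kind are a hallmark of mesenchymal cells, and all cells rebuild the actin cortex when they divide.

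The 603 cells held 1537576 counts, and totals per cell lay between 1000 and 42404, with 2106 as the median. The file repeats its barcodes after 316 columns, and the columns before and after that point are called barcode set 1 (786288 counts) and barcode set 2 (287 cells, 751288 counts). Of 364 distinct barcodes 239 stand in both. These sets and blocks of 50 consecutive columns are not groups of the study. The deepest cell held 2.76% of all counts. The label of the cells was checked against marker lists, and 15 of 16 genes of the sympathetic lineage had a count, with DBH at 0 and TH at 3 counts. Of the lists of other cell types, 7 of 10 skeletal muscle, 5 of 7 Schwann cell, 5 of 7 endothelial and 5 of 9 leukocyte genes were at 0. Not all genes of these lists were low, since MPZL1 of the Schwann cell list had 245 counts, with a count in 30.0% of cells. PTPRC of the leukocyte list had 29 counts. Of 9 smooth muscle genes 4 were at 0, among them the smooth muscle myosin gene MYH11. The smooth muscle list summed to 93.7 CPM (counts scaled to a fixed library total). Of this SYNPO2 gave 44.2 CPM (68 counts) and the actin gene ACTA2 39.0 CPM (60 counts). KRT18, a keratin gene, gave 82.2% of the counts of the epithelial list, in which CLDN4 had 67 counts and KRT8 had 37.

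The actin cytoskeleton genes took 44809 counts, 2.91% of the total (2.89 to 2.94, exact 95% interval for counting error only). Set 1 gave 3.00% and set 2 gave 2.83%. In cells ordered by total into groups of 201, the share was 2.86%, 2.97% and 2.91% from the shallowest to the deepest. A count was found for 37 of the 38. Their median level was 374 CPM, beside 132 CPM over the 2766 genes with at least 100 counts and 14.96 CPM over all 13641 genes with a count. Of the members 8 were among the 200 most abundant genes. CPM here is not divided by gene length, because a 3' tag method counts the ends of transcripts rather than their whole length.

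Actins and the proteins that bind actin monomers dominated, with 63.8% of the members' counts. The sequestering protein gene TMSB10, a beta-thymosin, stood alone at the top with 7235 CPM (7101 to 7370.5) and a count in 100% of cells. Its relative TMSB4X reached 2648 CPM, so TMSB10 gave 73.2% of the counts of this pair (72.5 to 73.9). The cytoplasmic actin genes were level with each other, ACTG1 at 2729 CPM (2647 to 2813) and ACTB at 2680.2 CPM (2599 to 2763). ACTB gave 49.5% of the counts of the pair in the pool, but 51.5% in set 1 and 46.8% in set 2. Muscle actins were nearly missing beside them, since ACTA2 stood at 39.0 CPM while ACTA1, ACTC1 and ACTG2 were at 0. A count of 0 allows up to 3 counts as a 1-sided limit, which is 1.95 CPM, and the 2-sided interval reaches 2.40 CPM.

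The monomer group also holds proteins of filament turnover. CFL1, which encodes cofilin, the protein that severs old filaments, stood at 1732 CPM. PFN1, the profilin that loads monomers with ATP and hands them to growing ends, stood at 1463 CPM. CAP1, which recycles monomers from cofilin, was much lower at 93.0 CPM and had a count in 16.1% of cells. Within this group the order TMSB10, then the actins with TMSB4X, then CFL1, PFN1 and CAP1 was set apart by intervals that do not overlap, whereas those of ACTG1, ACTB and TMSB4X did.

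Tropomyosins and other side-binding proteins gave 7.92% of the members' counts. TPM3 stood at 695 CPM (654 to 738), TPM1 at 604 CPM (565 to 644) and TPM4 at 440 CPM (407 to 474). TPM3 differed between the barcode sets, at 832 CPM in set 1 and 552 CPM in set 2, while TPM1 stood at 617 and 590 CPM, so their order was not the same in both. The fourth tropomyosin gene, TPM2, was at 33.8 CPM, so TPM1 exceeded it 17.8-fold. The calponin-related genes TAGLN and TAGLN2 differed more, for TAGLN2 stood at 459 CPM and TAGLN, a gene typical of smooth muscle, at 17.6 CPM with 27 counts in 27 cells. CALD1, the caldesmon that binds tropomyosin filaments and restrains myosin, stood at 58.5 CPM and had a count in 10.8% of cells.

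The chains of non-muscle myosin II gave 10.2% of the counts. The essential light chain gene MYL6 led with 1616 CPM and a count in 93.0% of cells. The regulatory light chains MYL12A and MYL12B stood at 681 and 448 CPM, while the third regulatory chain, MYL9, known from smooth muscle, had 0 counts in 603 cells. MYL6 was thus at least 828-fold above MYL9, taken against the limit of 3 counts over the pool. The heavy chain genes were lower than the 3 light chain genes with a count, MYH9 at 185 CPM and MYH10 at 38.4 CPM, and MYH9 gave 82.8% of their summed counts (78.4 to 86.6).

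The 8 member genes of the Arp2/3 complex, whose subunits stand in equal number in the protein, gave 9.75% of the counts at very unequal levels. ARPC2 stood at 1166 CPM (1113 to 1221). ARPC3 stood at 475 CPM, the alternative subunit genes ARPC1B and ARPC1A at 449 and 424 CPM, and ARPC5 and ARPC4 at 131 and 110 CPM. The actin-related subunits that begin the new filament were the lowest, ACTR2 at 76.7 CPM and ACTR3 at 9.76 CPM. ARPC2 had 1793 counts and ACTR3 had 15, found in 15 cells.

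Crosslinkers, end-binding proteins, membrane linkers and adhesion proteins gave 8.40% of the counts, with no gene above 449 CPM. ZYX, the zyxin of focal adhesions, stood at 449 CPM and FLNA, the filamin that crosses filaments into a mesh, at 437 CPM. FLNC, the filamin known from muscle, was at 166 CPM, which leaves FLNA with 72.4% of the pair. The alpha-actinins, which bundle filaments, were close, ACTN1 at 287 CPM and ACTN4 at 260.2 CPM. ACTN1 gave 52.4% of the pair with an interval of 49.0 to 55.9 that includes an even split. Of the linkers to the membrane MSN, moesin, stood at 323 CPM and EZR, ezrin, at 136 CPM. The capping protein genes CAPZB and CAPZA1 were at 222 and 113 CPM. VASP, which speeds filament growth at the leading edge, was lowest with 52.7 CPM.

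**Figure D1:**
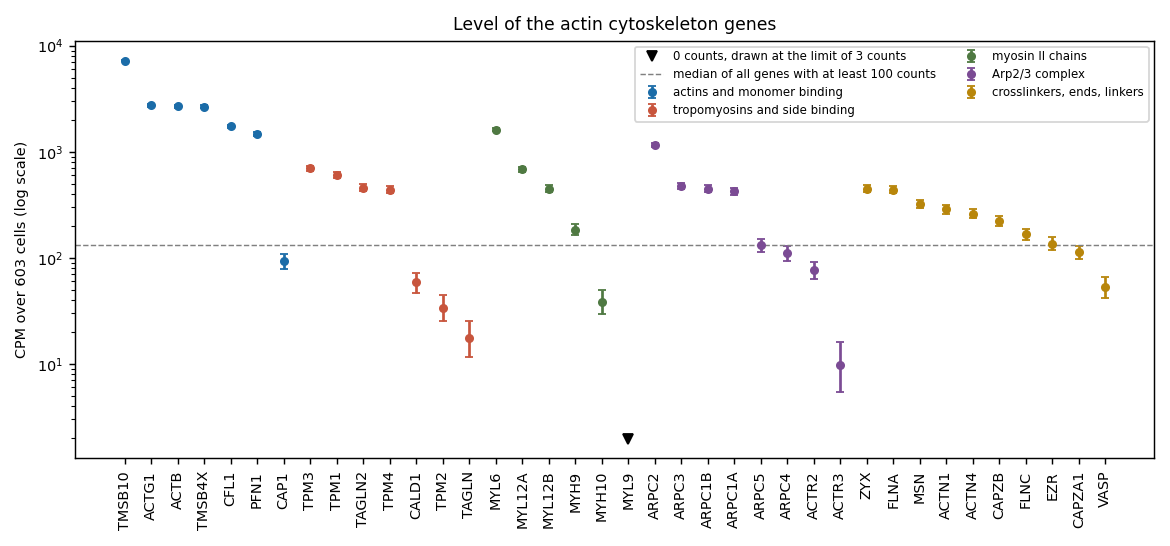
Level of each of the 38 actin cytoskeleton genes over 603 cells in CPM (log axis), coloured by class; bars are exact 95% Poisson intervals and the dashed line is the median of genes with at least 100 counts, 132 CPM. TMSB10 stood highest at 7235 CPM, ACTR3 was the lowest gene with a count at 9.76 CPM, and MYL9, at 0 counts, is drawn at the limit of 3 counts.

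Several of these rows may hold reads of more than 1 locus. GENCODE v29 lists pseudogenes named after 18 of the 38 members, 84 in all, with 20 for ACTG1, 10 for ACTB, 10 for PFN1, 8 for CFL1, 8 for TPM3 and 6 for TMSB4X. No source used here says how reads were shared among such copies, so levels of these genes are uncertain to that extent. The rows of ACTG1, TPM1 and TPM4 are joint rows that carry a second transcript name.

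Other actin genes outside the 38 were read from a list of 90. A count was found for 84 of them, and 33 had at least 100 counts. The highest were RAC1, the GTPase that drives lamellipodia, at 807 CPM, FSCN1, the bundling protein of filopodia, at 619 CPM, the adhesion scaffold PXN at 371 CPM and the Arp2/3 activator CTTN at 362 CPM. Among 22 genes around SRF, a transcription factor that turns on actin genes when monomers run short, CNN2 led at 204 CPM, followed by PDLIM7 at 132, TGFB1I1 at 99.5 and FHL2 at 70.9 CPM. SRF itself had 49.4 CPM, and its coactivator genes MKL1 and MKL2 had 1 and 6 counts.

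SRF binds a motif called the CArG box, CC and GG around a run of A and T, 10 letters in all. It reads the same way on both strands. RefSeq promoter windows (GRCh38.p14, 250 bases before to 50 after the start) were at hand for 34 of the 38 members, and ACTB, MYL9, TAGLN and ARPC1B were not matched. The box was found in 4 of the 34, a share of 11.8%, beside 1.60% of 27305 genes. The 4 stretches are shown to place the box in each of these genes, and the capitals mark it. They lie at chr17:81512850-81512999 (ACTG1, minus strand), chr14:68977617-68977766 (ACTN1, minus strand), chrX:154374685-154374834 (FLNA, minus strand) and chr19:16067338-16067487 (TPM4, plus strand), each from 200 to 51 bases before an annotated start.
ACTG1: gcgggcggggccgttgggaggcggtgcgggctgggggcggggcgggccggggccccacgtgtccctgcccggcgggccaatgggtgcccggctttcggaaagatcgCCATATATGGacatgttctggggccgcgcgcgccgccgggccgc
ACTN1: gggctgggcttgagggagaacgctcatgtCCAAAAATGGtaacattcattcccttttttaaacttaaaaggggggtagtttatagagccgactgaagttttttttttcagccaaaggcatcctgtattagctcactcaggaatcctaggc
FLNA: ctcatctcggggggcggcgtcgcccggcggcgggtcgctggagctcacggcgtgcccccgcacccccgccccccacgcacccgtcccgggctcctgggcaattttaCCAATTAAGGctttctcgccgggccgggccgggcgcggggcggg
TPM4: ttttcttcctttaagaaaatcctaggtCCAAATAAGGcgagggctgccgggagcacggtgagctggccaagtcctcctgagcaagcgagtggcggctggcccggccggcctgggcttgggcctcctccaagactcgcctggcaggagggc

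The box began 94 bases before the start in ACTG1 and FLNA, 171 in ACTN1 and 173 in TPM4. An AP-1 motif, TGANTCA on either strand, was found in 5 of the 34 members (14.7%), namely ACTN4, ARPC5, CALD1, EZR and TAGLN2, beside 9.37% of all genes, and in none of the 4 above. A match of letters is a description and shows no binding, and the files hold no measurement of binding.

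How the genes varied from cell to cell was measured at equal depth, after each cell was thinned at random to 1100 counts, which kept 560 cells and left out 43. The summed member count per cell then had a median of 31, with a lowest value of 10 and a highest of 61. A mean of at least 0.3 counts per cell, the minimum for a useful spread, was reached by 21 members and missed by 17. Spread was measured as the Fano factor, the variance over the mean, divided by that of genes of like mean.

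ACTB varied most. Its thinned count lay between 0 and 17, median 2, and 109 of the 560 cells had none. Its Fano factor was 2.83, or 2.14 times that of genes of like mean, rank 17 of 629 genes. ACTG1, with nearly the same mean, followed at 1.72 times, TMSB4X at 1.44 and TMSB10 at 1.34. TMSB10 lay between 0 and 25, median 8, and 2 cells had none. It has rank 4 of all genes by level, so it was set against genes mostly of lower mean. These 4 of 21 members lay above 1.2 times, where 11.4% of all such genes lay, and TAGLN2 came next at 1.12. The other members varied about as genes of like mean do, with a median over the 21 of 1.02. The lowest were ARPC3 at 0.908, MSN at 0.922 and ARPC1A at 0.929.

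The spread of ACTB moved with the columns of the table and with 4 genes outside the actin list. RPS29 and RPL26, ribosomal proteins, NDUFA4, a subunit of the respiratory chain, and CALM2, a calmodulin gene, were the genes with a Spearman rho to ACTB of at least 0.3 (0.459, 0.364, 0.370 and 0.326 over 560 cells of 1 pool). They were chosen after their values were seen. Over 12 blocks of columns the mean ACTB count ran from 1.48 to 4.07, a 2.75-fold range, and the summed count of the 4 genes from 1.09 to 3.80. Of other members TPM1 ran over a 2.87-fold range, at low means of 0.30 to 0.87. TPM3 ran over a 2.12-fold range, ARPC2 over a 1.87-fold, ACTG1 over a 1.59-fold and TMSB10 over a 1.43-fold one. ACTB also stood higher in deeper cells, at 1806, 2493 and 3037 CPM from the shallowest to the deepest 201 cells. The part of columns and depth in the spread of ACTB was not tested.

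**Figure D2:**
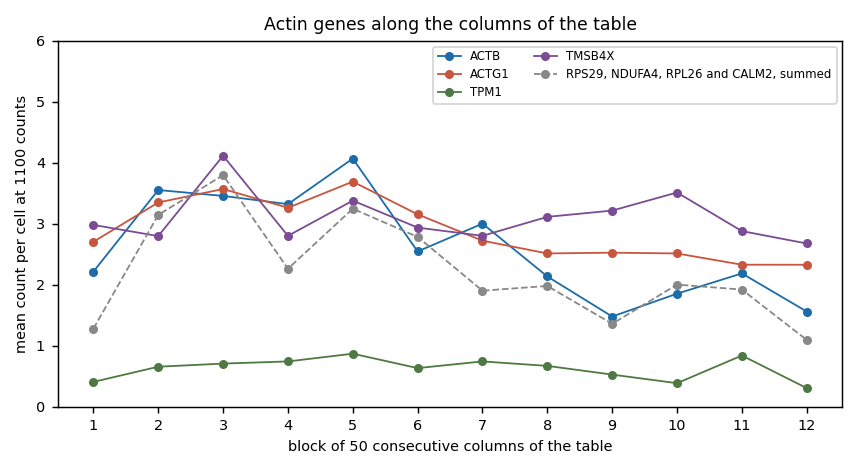
Mean count per cell at 1100 counts (vertical axis) of ACTB, ACTG1, TPM1, TMSB4X and the sum of RPS29, NDUFA4, RPL26 and CALM2 (dashed) in 12 blocks of 50 consecutive columns (horizontal axis). ACTB ranged from 1.48 to 4.07 and was highest in the fifth block, TPM1 ranged from 0.30 to 0.87, and TMSB4X stayed between 2.67 and 4.11.

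Members covaried weakly at this depth. Over the 210 pairs of the 21 members the median Spearman rho was 0.0187, beside a median of -8.06e-05 over 197506 gene pairs. A rho of at least 0.1 was reached by 13 pairs, or 6.19%, beside 1.87% of all pairs. In set 1 alone the shares were 12.9% and 5.25%, and in set 2 alone 7.89% and 6.31%. Pairs of the same class had a median of 0.0458 and pairs of different classes 0.0127. The monomer group stood at 0.0619, the tropomyosin group at 0.0597 and the crosslinker group at 0.0648, while the 6 pairs of Arp2/3 genes had a median of 0.00929 and ran from -0.0443 to 0.0594. The points of each rho are the same 560 cells, whose counts share a total. With so few counts per gene, such small values say little about single pairs.

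The pairs with the highest rho joined the cytoplasmic actins, TPM1, TPM3 and CFL1. ACTB and ACTG1 had 0.248, ACTB and TPM1 0.243, ACTB and TPM3 0.216, and ACTB and CFL1 0.204. ACTG1 had 0.203 with TPM1, 0.188 with ACTN1 and 0.125 with MYL12A, and the thymosins TMSB10 and TMSB4X had 0.146. Within blocks of columns the values of these 8 pairs ran from 0.130 (ACTG1 and MYL12A) to 0.224 (ACTB and ACTG1). Given the summed count of the 4 genes that moved with ACTB, ACTB and CFL1 went to 0.154 and ACTB and TPM3 to 0.159, while ACTB and TPM1 stood at 0.237. ACTG1 and TPM1, a pair without ACTB, had 0.138 in set 1 and 0.267 in set 2.

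**Figure D3:**
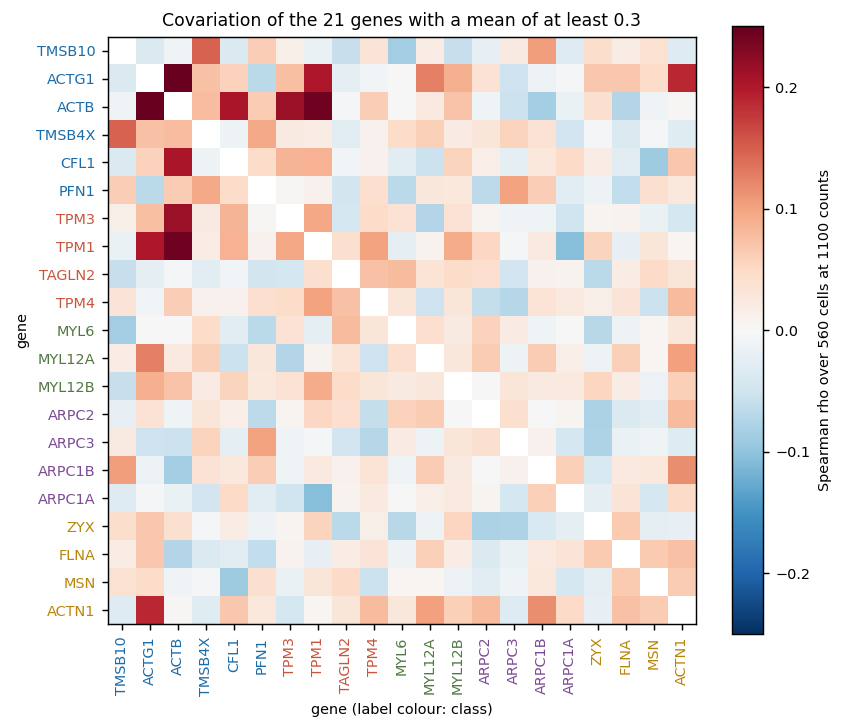
Spearman rho over 560 cells at 1100 counts for each pair of the 21 actin cytoskeleton genes with a mean of at least 0.3, label colours by class. The darkest cells join ACTB with ACTG1 (0.248), TPM1 (0.243), TPM3 (0.216) and CFL1 (0.204), and most other pairs lie near 0.

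Of 608 genes outside the list, those with a high rho to the summed member count included S100A10, a partner of annexin A2 at the membrane, at 0.222 and the intermediate filament gene VIM at 0.195. RPS29 (0.172), S100A11 (0.161), ANXA2 (0.160), HSP90B1 (0.152), MT2A (0.148) and LMNA (0.148) were also high. Without ACTB in the sum RPS29 went to 0.0406 and VIM to 0.220. Among the lowest were INS-IGF2 at -0.234, RPS14 at -0.160, ATP5EP2 at -0.155 and CDC37 at -0.147, and the median over the 608 genes was -0.00578.

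The relation to mitosis, DNA replication and mesenchymal identity was read by scoring each cell at 1100 counts on a gene list and comparing the 186 cells with the highest with the 186 cells with the lowest score. A difference is the log2 ratio of CPM on the full counts, with an exact 95% interval for counting error, and a log2 ratio of 0.5 either way was taken as the fold to count. Such groups are ranges of a score and not cell types. Of the 38 members 31 had the 100 counts needed to be tested against the fold, and TPM2, MYL9, MYH10, TAGLN, CALD1, ACTR3 and VASP did not.

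Cells rich in transcripts of 60 mitotic (G2/M) genes held as many actin cytoskeleton counts as cells poor in them. The median summed member count at equal depth was 31 in the first (16 to 59) and 32 in the second (10 to 61), and the summed log2 ratio was 0.01 (-0.03 to 0.04). The composition differed by class. Tropomyosins and side-binding genes were higher by 0.30 (0.18 to 0.42), and all 4 tested lay above 0, beside 50.6% of all genes tested, TAGLN2 at 0.40 (0.12 to 0.69), TPM4 at 0.33 (0.06 to 0.61), TPM1 at 0.31 (0.07 to 0.55) and TPM3 at 0.26 (0.04 to 0.48). The monomer group stood at -0.03, myosin II at -0.06, Arp2/3 at 0.04 and the crosslinker group at 0.11, with intervals that include 0.

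Single members differed little in the same comparison. ACTN1 was the 1 member of 31 past the fold, at 0.52 (0.16 to 0.88) with 169 counts against 110, where 11.6% of all 2735 genes tested were that much higher. Over 13 alternatives its ratio lay between 0.26 and 0.61, so the call depends on the setting. No member was that much lower, where 7.24% of genes were. After ACTN1, EZR stood at 0.45 (-0.05 to 0.96), TAGLN2 as above, ACTR2 at 0.40 (-0.27 to 1.08) and TPM4 as above. At the other end were MYH9 at -0.36 (-0.81 to 0.10), ARPC4 at -0.33, TMSB4X at -0.32 (-0.43 to -0.21), FLNC at -0.28 and MYL12B at -0.19. Of these TMSB4X rested on many counts, 1233 against 1435, and its mean at equal depth was 2.73 in mitotic-rich and 3.66 in mitotic-poor cells. TMSB10 stood at -0.09 (-0.16 to -0.03), ACTG1 at 0.27 (0.16 to 0.39) and ACTB at 0.11 (-0.01 to 0.22). Outside the list, DIAPH1, a formin that elongates filaments, stood at 1.17 (0.58 to 1.79). MARCKS, a membrane protein that binds actin, stood at 0.80 (0.14 to 1.49) and CORO1C, a coronin, at 0.51 (-0.04 to 1.08). Of the other actin genes 22 of 33 lay above 0, beside 50.6% of all genes tested. TGFB1I1, of the SRF list, was at -0.83.

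Cells rich in 44 genes of DNA replication (G1/S) stood at a summed ratio of -0.07 (-0.11 to -0.04) to cells poor in them, with medians of 31 and 33 counts at equal depth. With another random thinning the ratio was -0.02 (-0.05 to 0.02), and it also included 0 with scores at 1500 and 1000 counts. No member reached the fold either way, where 7.82% of genes tested were higher and 6.04% lower. The lowest were TMSB4X at -0.31 (-0.42 to -0.20), EZR at -0.28, MYL12B at -0.24, TPM4 at -0.23 and MYH9 at -0.22. The highest were ARPC5 at 0.36, MSN at 0.30, ACTN1 at 0.27, CAP1 at 0.26 and FLNC at 0.25, all with intervals that include 0, and over 12 alternatives CAP1 ran from -0.36 to 0.54 and FLNC from -0.20 to 0.44. The monomer group stood at -0.10 (-0.14 to -0.05), and intervals of the other classes include 0. Of other actin genes DIAPH1 stood at 0.67 (0.12 to 1.24) and MARCKS at 0.57 (-0.06 to 1.22). ACTR1A, an actin-related protein of dynactin, stood at -0.58 (-1.09 to -0.09) and ILK, a kinase of adhesions, at -0.57 (-1.07 to -0.07). This score is thin, with a median of 3 counts, and barcode set 1 gave 47.8% of the high-score cells but 68.3% of the low-score cells. In barcode set 1 alone the summed ratio was 0.02 and that of the monomer group 0.05. TMSB4X stood at -0.15 there and at -0.49 in set 2.

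Cells rich in 40 mesenchymal genes held more actin cytoskeleton counts. The median summed member count at equal depth was 33.5 (20 to 59) in them and 30 (10 to 61) in mesenchymal-poor cells, whose ranges overlap nearly in full, and the summed log2 ratio was 0.15 (0.11 to 0.18). The crosslinker group was higher by 0.21 (0.09 to 0.32), the monomer group by 0.16 (0.12 to 0.20), the tropomyosin group by 0.15 (0.03 to 0.27) and myosin II by 0.12 (0.02 to 0.23), while Arp2/3 stood at 0.03 (-0.08 to 0.14). Of the 31 members 22 lay above 0, with a median of 0.17, beside 50.5% of all genes tested above 0 and a median of 0.00. VIM gave 57.1% of the counts of this list. When VIM was left out of the score, the summed ratio was 0.05. That score also holds fewer counts and other cells in its groups, and the cause of the smaller ratio was not tested.

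ACTN1 was the 1 member past the fold here too, at 0.61 (0.25 to 0.97) with 184 counts against 104, where 7.15% of genes tested were that much higher. Over 13 alternatives its ratio lay between 0.22 and 0.85, above 0 in each, but not past the fold in each. It had a count at equal depth in 31.7% of the mesenchymal-rich and 20.97% of the mesenchymal-poor cells. Next were MYL12A at 0.47 (0.24 to 0.69), MYH9 at 0.46 (0.02 to 0.91), TAGLN2 at 0.42 (0.15 to 0.69) and ARPC1B at 0.40 (0.13 to 0.68). Over 13 alternatives MYH9 ran from -0.35 to 0.79 and TAGLN2 from -0.01 to 0.62, while MYL12A and ARPC1B stayed above 0. TMSB10 stood at 0.24 (0.17 to 0.31), with a mean at equal depth of 9.35 against 7.85. The lowest were EZR at -0.36 (-0.86 to 0.14), ACTR2 at -0.25, ARPC3 at -0.19, TPM3 at -0.17 and ZYX at -0.09, and no member was lower past the fold, where 5.26% of genes were. EZR took either sign over 13 alternatives (-0.91 to 0.15). MSN, the other membrane linker, stood at 0.39 (0.06 to 0.72), and the share of EZR in their counts was 25.8% (20.6 to 31.5) against 36.8% (30.1 to 43.9), intervals that overlap. ARPC1A gave 43.4% (38.9 to 47.9) of the ARPC1 pair in mesenchymal-rich and 51.3% (46.1 to 56.5) in mesenchymal-poor cells. Outside the list WDR1, which helps cofilin, stood at 0.65, CORO1C at 0.64 and MARCKSL1 at -0.78. ACTB stood at -0.07 (-0.19 to 0.04). Barcode set 1 gave 46.8% of the mesenchymal-rich and 59.7% of the mesenchymal-poor cells. In sets 1 and 2 ACTB stood at 3199 and 2138 CPM, and TPM3 at 832 and 552 CPM. The part of the sets in the ratios of ACTB and TPM3 was not tested. The summed count of the 4 genes that move with ACTB had a mean of 1.76 in the mesenchymal-rich and 2.70 in the mesenchymal-poor cells, whose part in the ratios was not tested.

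Cells rich in 46 matrix genes were compared in the same way. The summed level of the members was higher by 0.10 (0.07 to 0.13), with medians of 33 and 31 counts at equal depth. Of the 31 members tested TPM1 stood furthest from 0 at 0.79 (0.54 to 1.04). It had 411 counts against 204 and a count at equal depth in 47.3% against 30.1% of cells. Of the other tropomyosins TPM3 stood at -0.07 and TPM4 at -0.20. Of members under the filter TPM2 stood at 0.67 (-0.32 to 1.72, 26 counts against 14) and CALD1 at 1.33 (0.49 to 2.25, 47 against 16). MYH10 stood at -0.15 (-1.11 to 0.81) and VASP at -0.54 (-1.31 to 0.21). With a filter of 50 counts 4 of 35 members were past the fold higher, where 11.1% of genes were. On the lower side 1 was, where 8.81% of genes were. Among members with at least 100 counts ACTR2 at 0.55 (-0.17 to 1.29, 46 counts against 27) was the other past the fold. So 2 of 31 were higher, where 6.37% of genes tested were, and none was lower, where 5.5% were. Over 13 alternatives ACTR2 lay between 0.15 and 1.00 and TPM1 between 0.50 and 1.03. Among genes with at least 500 counts TPM1 was the 1 member past the fold, where 2.99% of genes were that much higher. CAP1 at 0.43, ACTB at 0.37 (0.26 to 0.48) and EZR at 0.27 followed. The lowest were ARPC5 at -0.40, ARPC1A at -0.31 (-0.60 to -0.03), TPM4 as above, ZYX at -0.19 and MSN at -0.13.

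By class the tropomyosin group stood at 0.20, myosin II at 0.12, the monomer group at 0.11, Arp2/3 at -0.01 and the crosslinker group at 0.00 in matrix-rich cells. The thymosins went apart, TMSB4X at 0.23 (0.12 to 0.34) and TMSB10 at -0.10 (-0.17 to -0.03), so TMSB10 gave 70.1% of their counts in matrix-rich and 74.7% in matrix-poor cells. All 5 SRF-list genes tested lay above 0, beside 48.1% of all genes tested. CNN2 at 0.61 (0.18 to 1.06) and TGFB1I1 at 0.51 (-0.10 to 1.13) were past the fold, where 6.37% of genes were. MYO1C, a membrane myosin, stood at 0.55 (0.05 to 1.06).

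**Figure D4:**
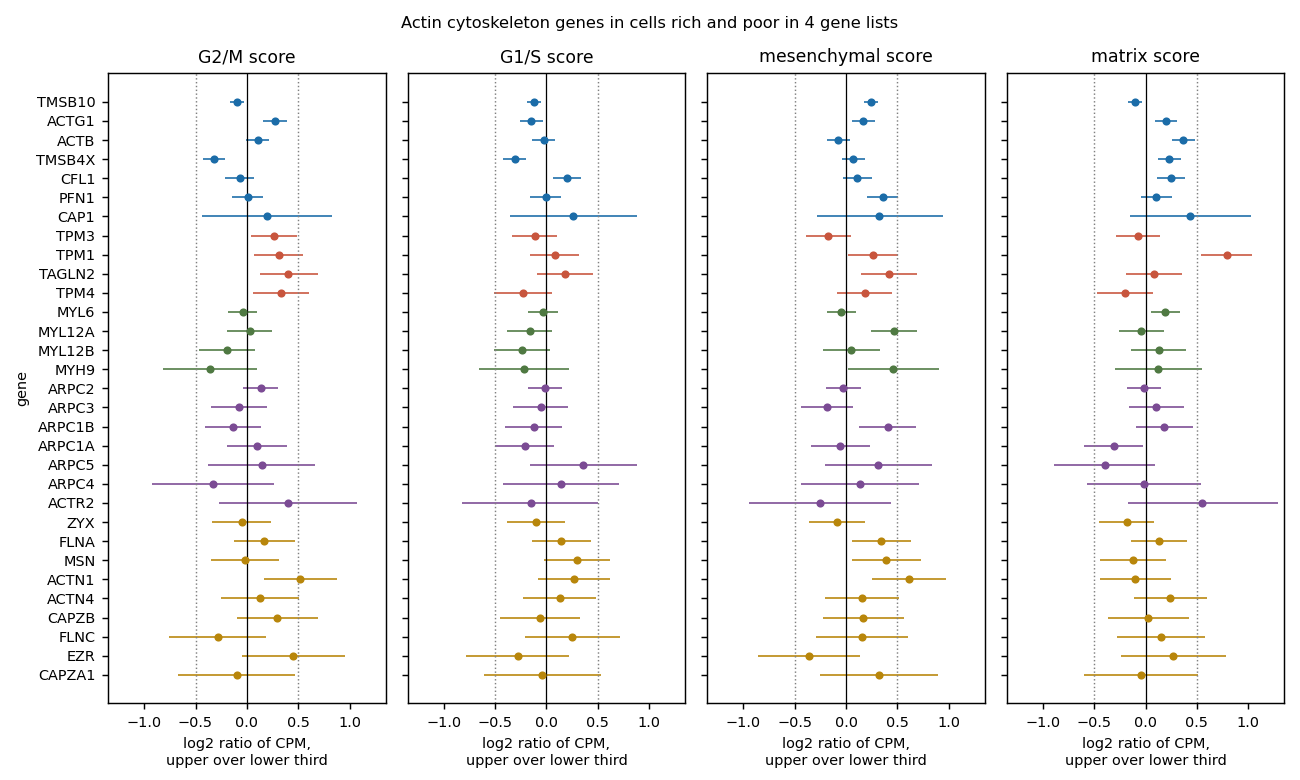
Log2 ratio of CPM of the 31 actin cytoskeleton genes with at least 100 counts, in the 186 cells with the highest over the 186 cells with the lowest score on each of 4 gene lists; bars are exact 95% intervals for counting error and dotted lines mark 0.5 either way. TPM1 in matrix-rich cells at 0.79 and ACTN1 in mesenchymal-rich cells at 0.61 stand furthest to the right, and TMSB4X lies left of 0 with both cell cycle scores.

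ACTB was used as a score of its own after it was seen to vary most, so the choice of this comparison rests on these data. The 186 cells with the most ACTB counts at equal depth had 3 or more, and the 186 with the fewest had 0 or 1. Ties were cut by column order, and 42 cells of the first group stood at 3 and 77 of the second at 1. In the first group the other members were higher by 0.13 (0.10 to 0.17) than in the second. Of 30 members 5 were past the fold higher, where 8.97% of genes tested were, and 1 lower, where 6.15% were. ACTG1 stood at 0.79 (0.68 to 0.90), with a mean at equal depth of 3.81 against 2.23. TPM1 stood at 0.90 (0.66 to 1.15) and TPM3 at 0.66 (0.44 to 0.89), while TPM4 at 0.10 and TAGLN2 at -0.02 had intervals that include 0. FLNC stood at 0.92 (0.44 to 1.42) and CAP1 at 1.31 (0.67 to 2.01), the latter from 87 counts against 26. With thinned counts, in which each cell weighs the same, CAP1 was at 0.44 and FLNC at 0.28. Among genes with at least 500 counts ACTG1, TPM1 and TPM3 were past the fold, where 4.94% of genes were that much higher.

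The member past the fold on the lower side was ARPC4 at -0.64 (-1.22 to -0.07), and the Arp2/3 group stood at -0.16 (-0.26 to -0.05) while the tropomyosin group stood at 0.48 (0.36 to 0.60). Thymosins stood near 0, with TMSB4X at 0.01 (-0.10 to 0.12) and TMSB10 at -0.08 (-0.14 to -0.01). Larger ratios than these came from genes of other functions. RPL34, 60.15% of whose counts lay in 10 cells, stood at 3.14 (107 counts against 9). RPL26 stood at 2.75, RPS29 at 2.44, NDUFA4 at 2.09 and PTTG1 at 2.06. Their shares in 10 cells ran from 16.5% (RPS29) to 25.4% (RPL26). CHGA, 83.9% of whose counts lay in 10 cells, stood at -4.50. Barcode set 1 gave 63.4% of the ACTB-rich and 45.7% of the ACTB-poor cells, whose median totals were 2442.5 and 2103.5. With groups made within blocks of columns ACTG1 stood at 0.71, TPM1 at 0.83 and TPM3 at 0.67. Of the other actin genes ENAH, a relative of VASP, stood at 1.05 (0.49 to 1.63) and CDC42, a GTPase of filopodia, at -0.52.

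**Figure D5:**
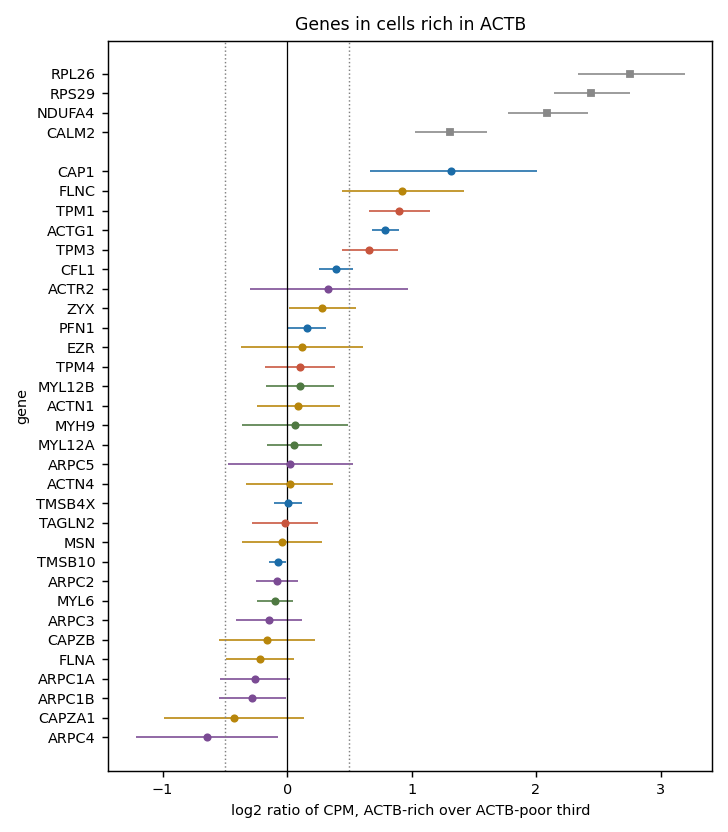
Log2 ratio of CPM in the 186 ACTB-rich over the 186 ACTB-poor cells for the 30 other actin cytoskeleton genes tested (coloured by class) and for 4 genes outside the list (grey squares), with exact 95% intervals for counting error; dotted lines mark 0.5 either way. ACTG1 at 0.79, TPM1 at 0.90 and TPM3 at 0.66 lie to the right, and the grey genes reach 2.75 (RPL26).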

How the data were processed

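Single-cell RNA of SK-N-AS was measured by MARS-seq. The authors deposited raw counts, whole numbers for each gene in each cell. Their alignment used Bowtie2 (2.1.0) and the build hg19, as the submitters' processing notes say. Not given in the sources used here are the counter, the annotation, any filter on cells, and whether a count is a molecule or a read. A row named unknown (2 counts) was left out. No filter was set on cells, and no doublet caller was run on cells sorted into single wells. Intervals are exact Poisson (CPM), Clopper-Pearson (shares) or conditional binomial (ratios) at 95% and cover counting error only. With 1 pool no replicate test was possible, and no p-value was computed. Ties at the bounds of a score were broken by column order. Genes named outside the list are the 10 highest and 5 lowest by rho to the summed members, and of the lists of other actin genes and SRF genes the 4 most abundant and up to 5 past the fold; of members, the 5 highest and 5 lowest in each comparison, the 8 top pairs and the extremes of variation. A few genes that this rule names are left out of the text. All others were chosen after their values were seen. The members and lists were chosen with earlier results of these data known. Alternatives changed the depth, thinning, cells, groups, filter, total and scored genes. Scripts ran in Python 3.11.15 with numpy 2.4.6 and scipy 1.17.1 and were tested on simulated data.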

Additional observations from a re-analysis of the deposited data

How the results depend on the processing

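No paired analysis was possible because the cell columns carry no sample or replicate number. The members' share of counts was 3.499% with ribosomal protein genes out of the total, 2.54% without joint rows, 3.00% in barcode set 1 and 2.83% in set 2. Pairs with rho of at least 0.1 numbered 27 in set 1 (12.9% beside 5.25% of all pairs) and 3 of 28 among genes with a mean of at least 1 (10.7% beside 5.61%), against 13. For the G2/M score, the summed members log2 ratio was 0.0510 in set 1 alone. For the G1/S score it was -0.0150 with the score at 1500 counts, -0.0233 at 1000 and -0.0169 with another thinning, and 0.0215 in set 1 alone, the opposite sign, and the monomer class log2 ratio was 0.00895 at 1500 counts and 0.0488 in set 1. For the mesenchymal score the summed ratio was 0.25 at 1500 counts, 0.21 at 1000, 0.21 in set 2, 0.10 with a split at the median, 0.18 with ties broken at random and 0.0515 without VIM. For the matrix score it was 0.13 at 1500 counts, 0.0625 in set 1 and 0.18 in set 2. The causes were not tested.

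Members past the fold depended on the setting. Over 16 alternatives they numbered 0 to 5 higher and 0 to 1 lower for the G2/M score, 0 to 5 and 0 to 2 for the mesenchymal score and 1 to 6 and 0 to 2 for the matrix score. Over 15 alternatives they numbered 0 to 4 and 0 to 4 for G1/S, and 3 to 7 and 0 to 3 for ACTB. Where the higher counts were greatest, the shares over all genes were 16.2% for G2/M (5 of 31 members, set 1), 14.05% for G1/S (4 of 31, thinned counts), 5.74% for mesenchymal (5 of 31, 1500 counts), 12.7% for matrix (6 of 31, set 2) and 13.8% for ACTB (7 of 34, filter of 50 counts). On the lower side they were 6.91%, 26.0%, 13.1%, 13.5% and 12.6%, for 1 of 31, 4 of 37, 2 of 31, 2 of 31 and 3 of 30 members. With at least 500 counts per gene only TPM1 was past the fold with matrix genes, and ACTG1, TPM1 and TPM3 with ACTB. TPM1 with matrix genes kept its sign in all 13 alternatives that give it a ratio (0.50 to 1.03), as did the tropomyosin class with G2/M genes (0.13 to 0.41), TMSB4X with G2/M genes (-0.42 to -0.19) and ACTN1 with mesenchymal genes (0.22 to 0.85). Named members that took either sign were ACTR2 and EZR with the G2/M score, EZR, TPM4, FLNC, CAP1 and MSN with G1/S, EZR, ACTR2, ARPC3, TPM3, ZYX, TAGLN2 and MYH9 with mesenchymal, ARPC5, ZYX, MSN, EZR and CAP1 with matrix, and CAPZA1, ARPC1B and ARPC1A with ACTB. The widest of these ran from -1.352 to 0.25 (ARPC5, matrix). Ties broken at random and rho within blocks were added after the data were seen. Members under 100 counts were given no ratio in the text, except TPM2, CALD1, MYH10 and VASP with the matrix score.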
